A study of Rattus norvegicus with 15 samples.

Results

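The genes described here belong to the signalling route from nitric oxide to cyclic GMP. They were chosen by name: Gucy1b1 and Gucy1a1, which encode the beta-1 and alpha-1 subunits of soluble guanylate cyclase, Gucy1a2, its alpha-2 subunit, Nos1, the neuronal nitric oxide synthase, and Prkg2, the type II cGMP-dependent protein kinase. Of these 5 genes, 4 had a probe set on the array under the platform annotation, with 6 probe sets in all, among 4736 genes and 8740 probe sets in the series. Gucy1a2 had no probe set under its symbol and is not analysed here. The names were proposed with earlier results of the comparison between regions in view, so the regional differences of these genes are given as a description, with no test.

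Rat midbrain neurons were taken by laser capture microdissection, either from the ventral tegmental area (VTA) or from the pars compacta of the substantia nigra (SNc), and their total RNA was hybridised to an Affymetrix expression array. The SNc had 8 arrays (1 to 8) and the VTA 7 (1 to 6, and 8). The labels give no strain, age, sex or treatment, name no animals, and do not say how neurons were recognised, so the spread between arrays may in part be technical. Signals are the deposited intensities on a linear scale, scaled to a common level on every array, and a difference is the SNc mean less the VTA mean of log2(signal + 16) with the standard error (SE) of limma's fit over all probe sets. A probe set was tested if its mean log2(signal + 16) lay above the lowest 40% of all probe sets, a level that corresponds to a signal of about 26.3. A p is a limma p after Benjamini-Hochberg adjustment, with a threshold of 0.05.

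The captures carried the markers of dopamine neurons. All 9 listed markers, among them Th, tyrosine hydroxylase, and Slc6a3, the dopamine transporter, had a tested probe set, and their summed signal ran from 26850 to 33820 over the SNc arrays and from 22690 to 32440 over the VTA arrays. Median signal per array was 41.3 ± 3.05 in SNc and 45.0 ± 1.72 in VTA (SD, n = 8 and 7).

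Nitric oxide is made from arginine by a nitric oxide synthase that is switched on by calcium and calmodulin in neurons, and it diffuses to neighbouring cells. Its main receptor, soluble guanylate cyclase, is a dimer of an alpha and a beta subunit that binds nitric oxide through a heme group held by the beta subunit and turns GTP into cGMP. The cGMP then acts on protein kinases, ion channels and phosphodiesterases. In the midbrain the route is known for shaping the firing and release of dopamine neurons.

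Gucy1b1 and Gucy1a1 lie next to each other on rat chromosome 2, with no protein-coding gene between them in the RefSeq gene table of assembly GRCr8. The starts of both genes are shown because the 2 proteins work as 1 enzyme and the signals of both are compared below. Each stretch is 250 bases before to 50 bases after the RefSeq start on build GRCr8, from RefSeq, written 5′ to 3′ on the gene's strand, which is the minus strand for both. Capitals mark the GC box, spelled GGGCGG, and the CCAAT box, each searched on both strands. A CCAAT box of the other strand is read here as ATTGG.
Gucy1b1, chr2:169696938-169697237: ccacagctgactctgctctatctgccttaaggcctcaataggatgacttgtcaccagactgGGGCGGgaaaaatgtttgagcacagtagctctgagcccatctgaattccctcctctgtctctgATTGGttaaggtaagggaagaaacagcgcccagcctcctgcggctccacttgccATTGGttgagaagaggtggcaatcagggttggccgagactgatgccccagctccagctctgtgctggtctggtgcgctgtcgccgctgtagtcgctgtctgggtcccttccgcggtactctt
Gucy1a1, chr2:169779574-169779873: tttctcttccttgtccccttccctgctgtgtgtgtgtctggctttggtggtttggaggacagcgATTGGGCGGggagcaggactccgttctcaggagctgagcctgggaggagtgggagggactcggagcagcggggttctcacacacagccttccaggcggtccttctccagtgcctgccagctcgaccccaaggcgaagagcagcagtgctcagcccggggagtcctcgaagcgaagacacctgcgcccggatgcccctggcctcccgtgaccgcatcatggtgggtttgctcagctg
The Gucy1b1 stretch held 1 GC box and 2 CCAAT boxes, and the Gucy1a1 stretch 1 GC box and 1 CCAAT box that overlap. Of 33469 rat promoters of the same length, 33.1% held a GC box and 37.5% a CCAAT box, so these letters are common. Neither stretch held TATAAA on either strand, which 14.2% of the promoters did. GC content was 56.3% for Gucy1b1 and 63.7% for Gucy1a1, against a median of 51.7% over all promoters.

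Gucy1b1, the beta-1 subunit of the enzyme, was the member with the large regional difference. Its signal (probe set rc_AI233225_at) ran from 611 through a median of 850 to 994 over the SNc arrays. Over the VTA arrays it ran from 346 through a median of 439 to 631. All SNc arrays but SNc 3 lay above every VTA array, and all VTA arrays but VTA 6 lay below every SNc array. The means were 812 ± 133 in SNc and 449 ± 91.2 in VTA (SD, n = 8 and 7), a ratio of 1.81. On the log2 scale the difference was 0.84 (SE 0.15), and 33 of the 5244 tested probe sets had a larger difference towards SNc. Leaving out any single array kept it between 0.78 and 0.92.

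Gucy1a1, the alpha-1 subunit, differed less and varied more within VTA. Its signal (probe set rc_AA849036_at) ran from 157 through a median of 222 to 268 over the SNc arrays. Over the VTA arrays it ran from 115 through a median of 168 to 273, so the VTA range enclosed the SNc range. The highest values of all arrays included VTA 1 and VTA 4, at 273 and 259, and the lowest VTA 8 and VTA 5, at 115 and 124. The means were 224 ± 35.9 and 182 ± 62.1 (log2 difference 0.32, SE 0.18). The spread between arrays was 34.1% of the mean in VTA, against 20.3% for Gucy1b1. With VTA 5 and VTA 8 left out together, a choice made after seeing the data, the log2 difference of Gucy1a1 was 0.12 (SE 0.17) and that of Gucy1b1 0.74 (SE 0.16).

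**Figure D1:**
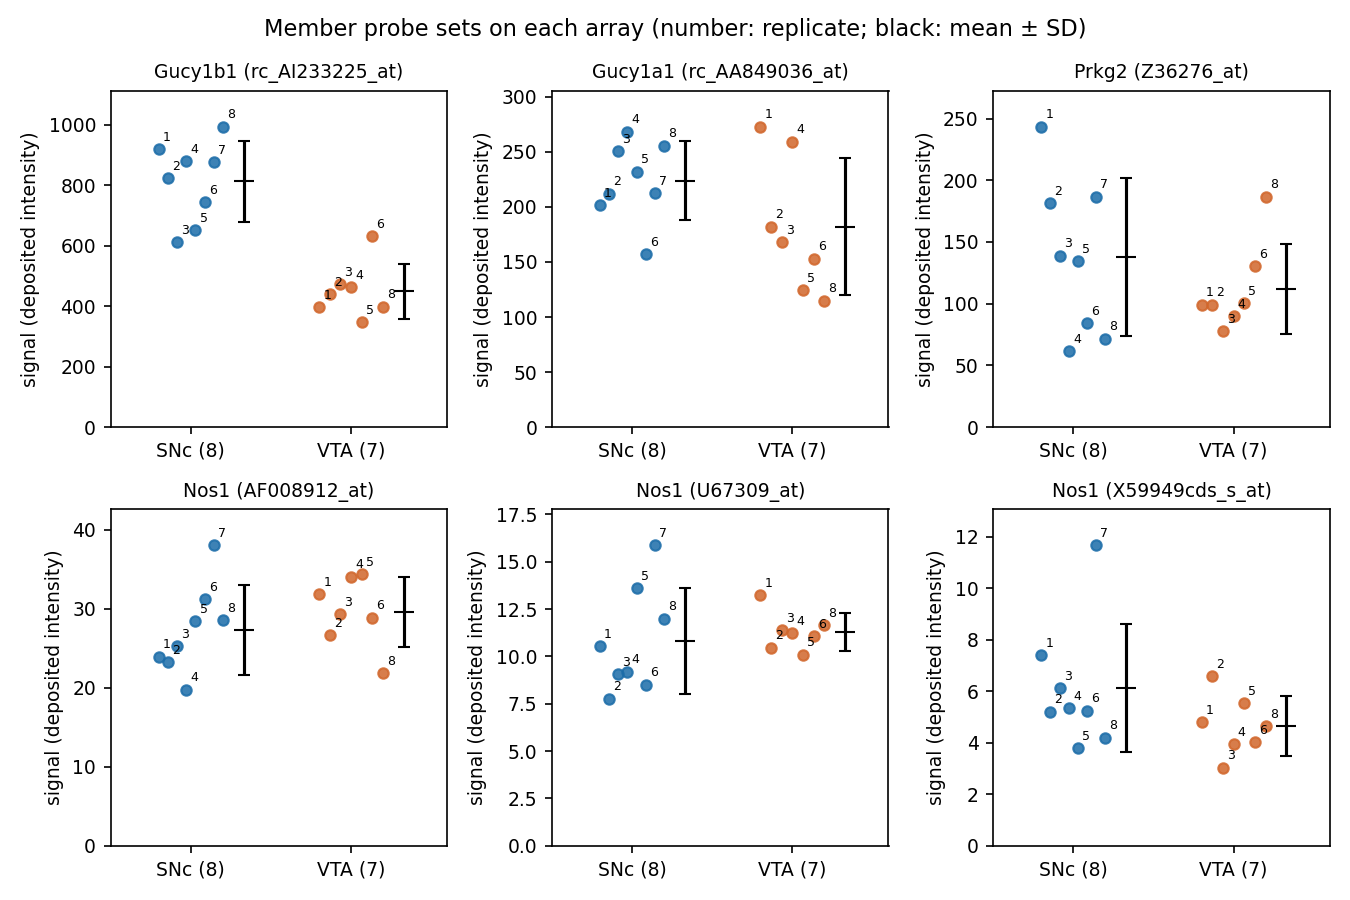
Signal (deposited intensity, linear axis from 0) of the 6 member probe sets on each of 8 SNc and 7 VTA arrays, 1 panel per probe set, with the replicate number beside each point and the mean ± SD in black. Gucy1b1 shows 1 VTA array, number 6, inside the SNc range, while the regions overlap widely in the other 5 panels.

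The difference between the log2 signals of both subunits within an array cancels whatever scales a whole array. Its level has no meaning, because 2 probe sets are not on a common scale, so it was centred on 0 over all 15 arrays. It was 0.24 ± 0.32 in SNc and -0.28 ± 0.49 in VTA (SD, n = 8 and 7), which puts the SNc arrays 0.52 higher on the log2 scale. SNc values ran from -0.31 in SNc 3 to 0.59 in SNc 6, and VTA values from -1.03 in VTA 1 to 0.39 in VTA 6. The count was 7 of 8 SNc arrays above the VTA median and 6 of 7 VTA arrays below the SNc median. Gucy1b1 was thus higher in SNc by more than Gucy1a1 in the means, though the regions overlapped.

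**Figure D2:**
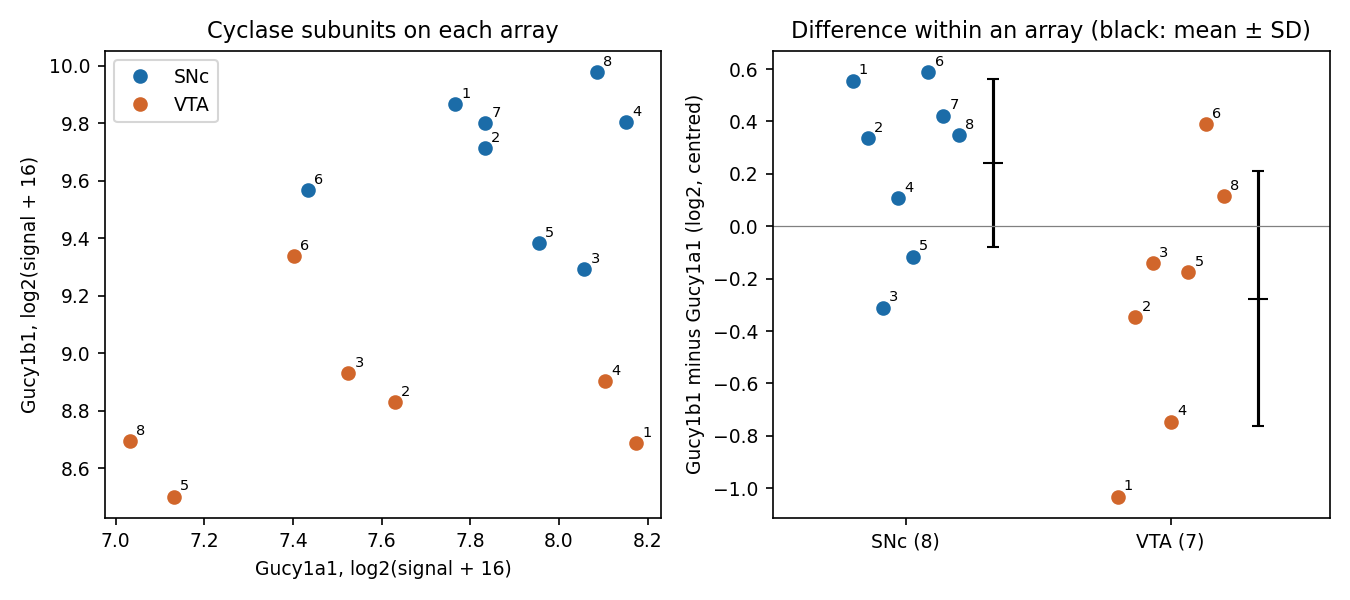
Left, Gucy1b1 against Gucy1a1 on the log2(signal + 16) scale, 1 point per array with its replicate number, SNc in blue and VTA in orange. Right, Gucy1b1 minus Gucy1a1 within each array, centred on the mean of 15 arrays, with mean ± SD per region in black. The SNc arrays sit higher for Gucy1b1, while the Gucy1a1 values of both regions overlap.

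Prkg2, a membrane-bound kinase that cGMP activates, was the member with the widest spread in SNc. Its signal (probe set Z36276_at) ran from 61.8 through a median of 137 to 244 over the SNc arrays. Over the VTA arrays it ran from 77.9 through a median of 99.2 to 187. SNc 1, SNc 7 and SNc 2 were high at 244, 187 and 182, and SNc 4, SNc 8 and SNc 6 were low at 61.8, 71.8 and 84.2. The means were 138 ± 63.8 and 112 ± 36.6 (log2 difference 0.19, SE 0.25), and the SNc range enclosed the VTA range. Leaving out a single array moved the difference between 0.07, without SNc 1, and 0.32, without SNc 4.

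Nos1 was dim by all 3 of its probe sets. The brightest (AF008912_at) ran from 19.8 through 26.9 to 38.1 over the SNc arrays. Over the VTA arrays it ran from 21.8 through 29.3 to 34.4. Its means of 27.3 ± 5.64 and 29.6 ± 4.44 were close to the signal of 26.3 at which probe sets were left out (log2 difference -0.08, SE 0.12). The other probe sets were below that signal, with means of 10.8 ± 2.81 and 11.3 ± 1.01 (U67309_at), and of 6.12 ± 2.50 and 4.65 ± 1.16 (X59949cds_s_at), in SNc and VTA. Their log2 differences, -0.03 (SE 0.08) and 0.09 (SE 0.08), come from the fit without the filter. No detection calls were used, so these signals do not show whether Nos1 RNA was present. SNc 7 was the highest of all 15 arrays on each of the 3 probe sets.

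Across the members, 4 of 6 probe sets were tested, 1 for each measured gene. The share of all 5244 that passed was 1.98%, made up of 0.839% towards SNc and 1.14% towards VTA, and of the 4 member probe sets that of Gucy1b1 was the 1 that passed. Because the members were chosen with this comparison known, nothing is read from that count. Gucy1b1, Gucy1a1 and Prkg2 kept a positive difference in all 24 alternative fits, and the Nos1 probe set AF008912_at kept its negative one in 22 of them. The Nos1 difference turned to 0.016 with quantile normalization and 0.015 with median centring, so its sign depends on the normalization.

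Some markers of GABA neurons were also higher on the SNc arrays. Of 5 listed markers 4 had a probe set and were tested, and 2 of them passed, Gad1 and Pvalb, both higher in SNc. Gad2 and Slc32a1 did not pass, with log2 differences of 0.225 (SE 0.255) and 0.068 (SE 0.184). Another tested Slc32a1 probe set, rc_AA996551_s_at, went the other way, at -0.418 (SE 0.147, limma adjusted p = 0.162). The summed signal of the 4 ran from 909 to 1848 in SNc and from 551 to 1022 in VTA. The means of Gad1, the enzyme that makes GABA, were 754 ± 180 and 279 ± 123. The part of these cells in the Gucy1b1 difference was not tested. Soluble guanylate cyclase is also a well known enzyme of vessel walls and glia. Of 9 vessel markers with a probe set, 8 were tested, and 0 passed in limma with 1 at an unadjusted p under 0.05, with a summed signal of 513 to 1322 in SNc and 564.2 to 1434 in VTA. The 6 astrocyte markers with a probe set summed to 2605 to 3686 and 2444 to 5022, and the 5 oligodendrocyte markers to 5269 to 9490 and 7686 to 11310, and 0 of these 11 passed in limma, with 1, an oligodendrocyte marker, at an unadjusted p under 0.05. Of 6 microglia markers with a probe set 5 were below the filter, and the summed signal was 81.2 to 126 in SNc and 70.4 to 181 in VTA. The 1 glutamate neuron marker with a probe set, Slc17a7, was below the filter, at 6.64 or less in SNc and 7.35 or less in VTA. The summed ranges of vessel, astrocyte and oligodendrocyte markers overlapped between regions, as did those of the GABA neuron markers. The part of vessel cells and glia in the Gucy1b1 difference was not tested either. In captured pools, more cells of a type and more RNA per cell cannot be told apart.

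Whether the members rose and fell together was examined within each region, which does not use the difference between regions. With the brightest probe set of each gene there were 6 pairs in 2 regions, 12 relations in all. None passed with Pearson's r or Spearman's rho after Benjamini-Hochberg adjustment (exact permutation of the pairings, two-sided), and 0 had an unadjusted p under 0.05 by either measure. For the cyclase subunits Gucy1b1 and Gucy1a1, r was 0.07 in SNc (n = 8, exact permutation p = 0.882, adjusted 0.959) and 0.12 in VTA (n = 7, exact permutation p = 0.825, adjusted 0.959). Spearman's rho was 0.17 and 0.07 (exact permutation p = 0.703 and 0.906, both 0.906 adjusted). Without the 2 arrays farthest from the Gucy1b1 median, r was 0.76 in SNc and 0.17 in VTA. With 7 or 8 arrays such values are loose, and these do not show that the subunits vary independently.

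The relation of Gucy1a1 to Prkg2 had a negative r in both regions. In SNc r was -0.27 (n = 8, exact permutation p = 0.538, adjusted 0.959) and rho -0.60 (exact permutation p = 0.132, adjusted 0.794). In VTA r was -0.58 (n = 7, exact permutation p = 0.175, adjusted 0.878) and rho -0.71 (exact permutation p = 0.0881, adjusted 0.794). SNc 6, low for both genes, decided the SNc value. Without SNc 6, r was -0.94 in SNc and passed (exact permutation, adjusted p = 0.00952 over the 12 relations). Over all alternatives run for it the adjusted p ran from 0.00952 to 0.99, and leaving out any other SNc array gave no pass. Without the 2 arrays farthest from the Gucy1a1 median r was -0.90 in SNc and -0.68 in VTA. The relation of Nos1 to Prkg2 in VTA had the smallest p of all 12 (r = -0.74, n = 7, exact permutation p = 0.0645, adjusted 0.774), and its rho was -0.46 (exact permutation p = 0.302, adjusted 0.906). Without the 2 arrays farthest from the Nos1 median that r was -0.25, so it rests on those arrays. The Nos1 signals also lay close to the filter, so this r does not show that Nos1 RNA varied.

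**Figure D3:**
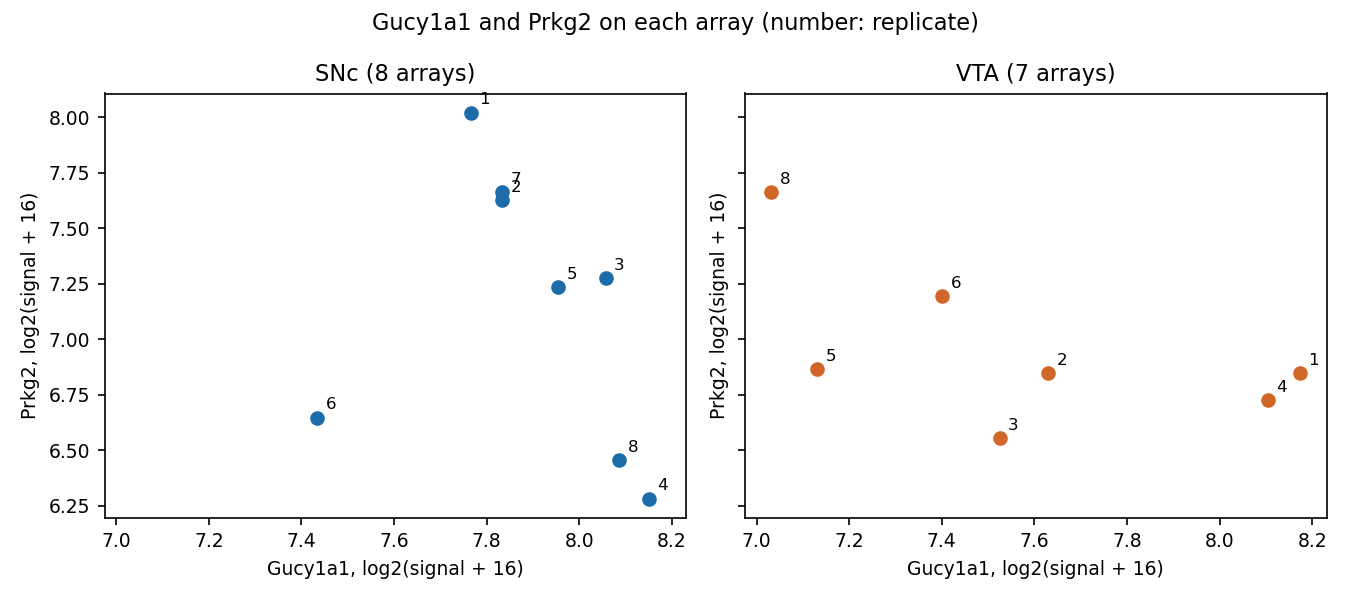
Prkg2 against Gucy1a1 on the log2(signal + 16) scale, 1 point per array with its replicate number, in SNc (left, 8 arrays) and VTA (right, 7 arrays). SNc 6 lies apart at the lower left, and the other SNc arrays fall from upper left to lower right.

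The genes whose signal was most like that of each member were found over the 15 arrays after the mean of each region had been subtracted, among 3217 other genes. For Gucy1b1 they were Slc1a2, a glutamate transporter of astrocytes (r = 0.83), Drd3, a dopamine receptor (r = 0.78), and Ddx39a, an RNA helicase (r = 0.77). For Gucy1a1 they were Cnot2, a subunit of a deadenylase complex, Ubald1 and C17h5orf24 (r = 0.79, 0.79 and 0.77). For Nos1 they were Aoc1, Tgfa and Svs3a (r = 0.82, 0.78 and 0.78), and for Prkg2 Zfp64, Ptpn18 and S1pr2 (r = 0.80, 0.74 and 0.74). These are the highest of many values over few arrays and are given as a description. The Nos1 signals lay close to the filter, so their likeness to other genes does not show that Nos1 RNA varied. Slc1a2 and Drd3 did not follow Gucy1b1 between the regions, with signals of 46.5 in SNc and 61.5 in VTA for Slc1a2 and of 366 and 441 for Drd3.

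The rest of the pathway was followed with a list of 74 genes, of which 50 had a probe set and 33 were tested. Of the 33, 1 was higher in SNc, Itpr1, and 1 higher in VTA, Gch1. Over all 3221 genes tested by their brightest probe set, 2.17% passed, 0.993% towards SNc and 1.18% towards VTA. The median difference of the list was -0.07, with 12 genes positive and 21 negative, and that of all genes was -0.04, with 1429 positive and 1792 negative. The list was written with earlier results of these data known, the call of Gch1 among them. Both calls held in all 24 alternative fits.

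Itpr1, the type 1 inositol trisphosphate receptor, releases calcium from the endoplasmic reticulum and is a substrate of cGMP-dependent kinase. Its signal ran from 663 through a median of 755 to 1132 in SNc. In VTA it ran from 301 through a median of 379 to 577, so the regions did not overlap, as in 0.858% of the tested probe sets. The means were 795 ± 154 and 412 ± 92.4 (log2 difference 0.93, SE 0.15, limma adjusted p = 0.00217), with all 8 SNc arrays higher than every VTA array. Its 4 other probe sets had means under 10 in both regions and were not tested.

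Upstream, the synthesis of nitric oxide and the supply of arginine were represented by 7 tested genes. Of these, 1 had a positive and 6 a negative difference (median -0.26). In limma 0 passed, with 2, Ddah1 and Arg1, at an unadjusted p under 0.05. The 7 included the arginases Arg1 and Arg2, which break down arginine and are named here after their values were seen. They differed by -0.35 (SE 0.16, limma adjusted p = 0.303) and 0.02 (SE 0.26). The count of signs thus mixes genes of unlike effect. Ddah1, which breaks down an inhibitor of nitric oxide synthases, ran from 978 through a median of 1085 to 1248 in SNc. In VTA it ran from 1216 through 1497 to 1631, with little overlap between the regions. Its log2 difference was -0.37 (SE 0.12, limma adjusted p = 0.125), and it passed in 1 of 24 alternative fits, with an offset of 64. The other synthases, named here for their kinship with Nos1 after their values were seen, were Nos3 of endothelium at -0.26 (SE 0.13) and the inducible Nos2 at -0.29 (SE 0.17). Another tested Nos2 probe set, U16359cds_at, went the other way, at 0.31 (SE 0.31), so the sign for Nos2 depends on the probe set. The other tested Nos3 probe sets differed by -0.13 (SE 0.15, AF110508_at) and -0.045 (SE 0.13, U02534_at). Slc7a1, a carrier of arginine, differed by -0.03 (SE 0.27). Slc7a3, another carrier of arginine, was not on the list and is named here after its values were seen: its signal averaged 172 ± 46.0 in SNc (SD, n = 8) and 352 ± 77.5 in VTA (SD, n = 7), a log2 difference of -0.97 (SE 0.18, limma adjusted p = 0.00513). Ass1, which makes the precursor of arginine and is named here after its values were seen, was below the filter at 5.87 ± 2.91 in SNc and 18.6 ± 7.06 in VTA. In the fit without the filter its log2 difference was -0.64 (SE 0.14, limma adjusted p = 0.0312).

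Gch1 supplies tetrahydrobiopterin, a cofactor of nitric oxide synthases and of tyrosine hydroxylase alike. By its brightest probe set it ran from 241 to 699 in SNc and from 934 to 1793 in VTA (log2 difference -1.34, SE 0.22, limma adjusted p = 0.00163), without overlap. Of the 4 tetrahydrobiopterin genes tested it was the 1 that passed. Qdpr, which regenerates the cofactor, differed by 0.04 (SE 0.17). Among the 4 tested partners of Nos1, 0 passed in limma or had an unadjusted p under 0.05. Nos1ap, an adaptor that binds neuronal nitric oxide synthase, ran from 162 to 680 in SNc and from 101 to 413 in VTA (0.60, SE 0.33, limma adjusted p = 0.395). Calm2, which encodes the calmodulin that switches the enzyme on, had means of 2981 ± 449 and 3103 ± 201.

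The other sources and targets of cGMP gave few differences. Of 7 tested genes among the other guanylate cyclases and natriuretic peptides, 0 passed in limma or had an unadjusted p under 0.05. Gucy2c, a membrane cyclase, and Nppc, a natriuretic peptide, differed by 0.31 (SE 0.31) and 0.04 (SE 0.15). Both heme oxygenases, which make carbon monoxide, also missed, at -0.01 (SE 0.34) for Hmox1 and -0.10 (SE 0.16) for Hmox2. Of 4 tested phosphodiesterase genes 0 passed, and 0 had an unadjusted p under 0.05. Pde2a, an enzyme that cGMP stimulates, had means of 200.3 ± 22.7 in SNc and 177 ± 39.5 in VTA (0.19, SE 0.14). Pde6d, a prenyl-binding subunit of photoreceptor phosphodiesterase, differed by -0.29 (SE 0.18). Of 5 tested effectors and kinase substrates, Itpr1 was the 1 that passed, and 2, Itpr1 among them, had an unadjusted p under 0.05. The other was Cnga1, named here after its values were seen, at -0.52 (SE 0.245, limma adjusted p = 0.313). Cngb1, a subunit of cyclic nucleotide-gated channels, differed by -0.22 (SE 0.14).

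**Figure D4:**
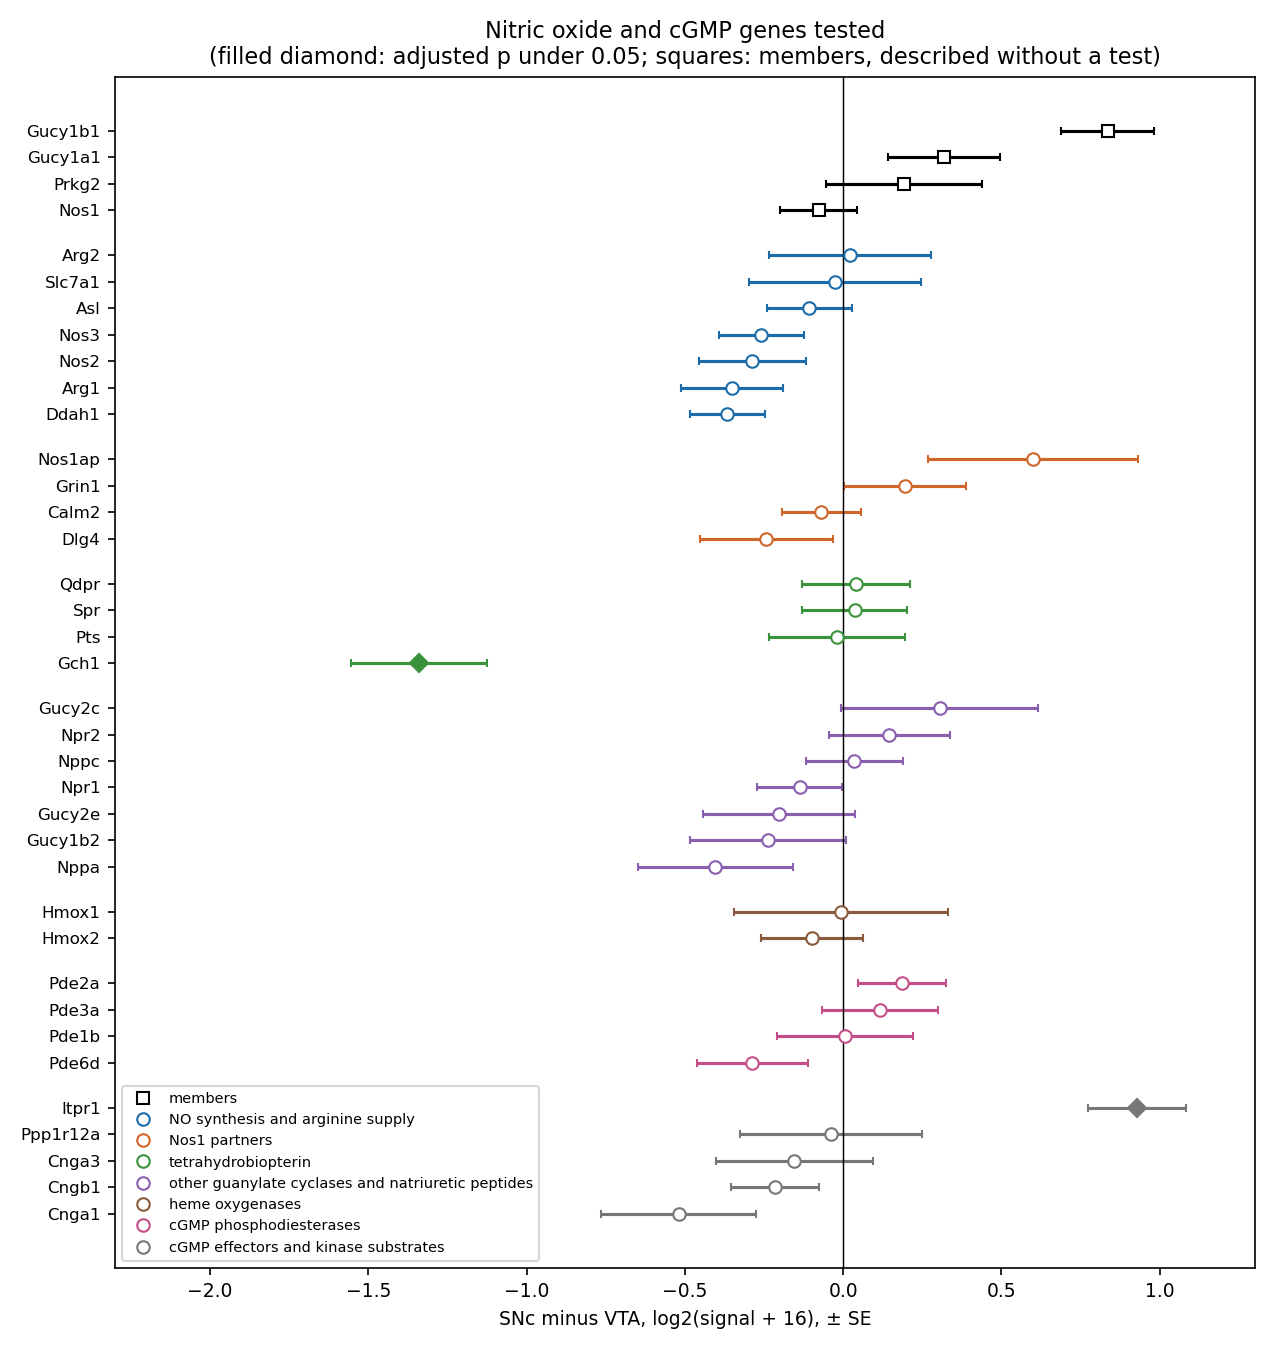
SNc minus VTA on the log2(signal + 16) scale with its SE, for the 4 measured members (squares, described without a test) and the 33 tested pathway genes (circles), coloured by role, with filled diamonds for an adjusted p under 0.05. Itpr1 at 0.93 and Gch1 at -1.34 are the filled diamonds, and Gucy1b1 at 0.84 lies beside Itpr1.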

How the data were processed

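The deposited table gives linear intensities of 15 arrays, with 1 value for each probe set. How the authors amplified RNA, corrected background and summarised probes is not given in the sources read. The mean left after trimming 2% at each end was 150.0 on every array, so the deposited intensities had been scaled. Of 8799 probe sets, 59 controls were left out of the tests. Gene names came from the platform annotation, with 7006 probe sets of 1 symbol, 308 of several and 1426 of none, updated through the RefSeq table, which changed 0.

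The deposited scaling was kept and values were turned into log2(intensity + 16), which makes the differences of dim probe sets smaller. The lowest 40% by mean log2 value were left out, and 5244 probe sets were fitted in R 4.3.3 by lmFit and eBayes of limma 3.58.1, with two-sided p-values and Benjamini-Hochberg adjustment. A gene was its probe set with the highest mean log2 value, called its brightest here. Precision is limited by the number of arrays. Correlations used exact permutation of pairings in Python 3.11.15. Both scripts were tested on simulated data.

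The named genes were the members, every listed pathway gene past the threshold, the 2 brightest genes of each role group and the 3 genes most like each member. Members and lists were chosen with earlier results of these data known. The alternatives were median centring, quantile normalization, an offset of 1 or 64, dropping the filter or raising it to 60%, a replicate block, array weights and leaving out each array. The labels do not say what a replicate number marks, so the numbers were not treated as pairs in the main fit. Arrays of the same number correlated weakly but positively, from 0.044 to 0.254, which does not show that the numbers are unrelated.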

Additional observations from a re-analysis of the deposited data

How the results depend on the processing

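The sign of the Gucy1b1, Gucy1a1 and Prkg2 differences was kept in all 24 alternative fits, and over these the log2 difference ran from 0.74 to 0.93 for Gucy1b1, 0.12 to 0.42 for Gucy1a1 and 0.07 to 0.32 for Prkg2. The dim Nos1 probe set X59949cds_s_at moved from 0.09 to 0.30 with an offset of 1. The 104 probe sets past the threshold became 60 with an offset of 1 and 184 with array weights, and from 56 to 115 on leaving out 1 array, with a shift past 1.5 times without SNc 2, SNc 3, SNc 4, VTA 1, VTA 2, VTA 3, VTA 5 or VTA 6. Higher signal in SNc made up 42.3% of these calls, and 64.4% after median centring. Pathway genes higher in VTA numbered 2 instead of 1 with an offset of 64 (Ddah1 added), with no filter (Ass1 added) and with every probe set counted (a second probe set of Gch1). The number of member pairs that passed ran from 0 to 1 on leaving out 1 array, with 1 without SNc 6. With the replicate number as a block, the differences were 0.82 for Gucy1b1, 0.33 for Gucy1a1 and 0.12 for Prkg2, and 99 probe sets passed. Correlations of same-numbered arrays ran from 0.044 to 0.254, and 3 of 7 SNc arrays correlated best with their own number. The offset limits what can be said of Nos1, whose signals lay close to the filter or below it.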

Other observations

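Fbxo21, a protein-coding neighbour of Nos1 on chromosome 12 in the RefSeq table of GRCr8 and named here after its values were seen, averaged 65.8 ± 23.4 on the SNc and 21.2 ± 12.0 on the VTA arrays (difference 1.15 on the log2 scale, SE 0.21, limma adjusted p = 0.00513), beside a Nos1 difference of -0.08 (SE 0.12). The Nos1 signals lay close to the filter or below it, and no relation between both genes was tested. The other neighbours of the members are not described here. Gucy2d, a membrane guanylate cyclase also named after its values were seen, was below the filter at 15.1 ± 6.75 in SNc and 7.11 ± 2.33 in VTA, and in the fit without the filter its log2 difference was 0.41 (SE 0.13, limma adjusted p = 0.172).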
